A study of Mus musculus with 8 samples.

Results

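Some probes of the Agilent mouse array used here are named by a genomic interval (chromosome, start, end, strand) in place of a transcript. Those spanning 10000 bases or more are described here where at least 4 of the 8 arrays found them well above background, 7445 in all. They were chosen from 37852 interval-named probes, of which 19729 span 10000 bases or more, on an array with 149782 distinct non-control probes. A further 12284 probes of that length did not pass the filter on background. The filter read the brightness of the spots and not the difference between the groups, but a probe dark in 1 group could pass through the other group alone. The livers came from male mice, 4 labelled control (normal mice) and 4 injected intraperitoneally with oxaliplatin once a week for 6 weeks. In the labels the second group stands for hepatic sinusoidal obstruction syndrome, in which the liver's smallest blood vessels are damaged. They give no strain, age, dose or time after the last injection. Oxaliplatin is a platinum drug that forms adducts on DNA and is used against colorectal cancer. The design text calls the 4 arrays of each group biological replicates, so every n below is 4 arrays per group.

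Back-splicing joins the end of a downstream exon (the donor) to the start of an exon upstream of it (the acceptor) and yields a circular RNA. Circular RNAs have no free ends, resist exonucleases and outlast most linear transcripts of the same gene, and in liver many come from long genes whose exons lie between long introns. RNA-binding proteins that bring the flanking introns together favour their formation, while enzymes that edit or unwind paired introns oppose it. The array files do not state that the interval probes are for circular RNA. The layout of their sequences was therefore examined.

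Each probe has 60 bases, and pairs of interval probes that share 1 end place the join within many of them. The probe starts with the last bases at the downstream end of the interval and goes on with the first bases at its upstream end, which is the order of a back-splice junction. The join could be placed in 5084 long-interval probes, with a median of 9 bases before it, and 3218 of these (63.3%) had at most 12 bases before it. Most of the sequence therefore lies on the acceptor side, where a linear transcript of the host gene can hold the same bases. The place of the join is inferred. In 4467 interval probes of any span it could be placed from both kinds of shared end, and 87.3% agreed within 3 bases. The following 8 probes are shown because results below turn on them. Capitals mark the bases before the join, and positions are on GRCm38 with the strand of the interval.
Mlh3, chr12:85247612-85261752, minus strand: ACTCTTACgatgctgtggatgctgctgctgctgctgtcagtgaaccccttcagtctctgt
Mlh3, chr12:85245763-85261752, minus strand: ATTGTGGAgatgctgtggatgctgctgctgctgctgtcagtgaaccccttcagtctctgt
Snx27, chr3:94519048-94562284, minus strand: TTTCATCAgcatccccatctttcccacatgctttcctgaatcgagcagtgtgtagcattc
Lncpint, chr6:31111034-31197851, minus strand: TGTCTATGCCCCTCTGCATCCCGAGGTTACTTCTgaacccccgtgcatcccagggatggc
Pecam1, chr11:106671742-106685248, minus strand: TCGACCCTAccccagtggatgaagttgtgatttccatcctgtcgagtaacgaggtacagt
Asap1, chr15:64149606-64166545, minus strand: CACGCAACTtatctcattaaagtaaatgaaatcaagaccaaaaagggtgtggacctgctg
Exoc4, chr6:33296733-33307240, plus strand: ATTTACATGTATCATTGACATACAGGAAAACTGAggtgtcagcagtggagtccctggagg
Lpin1, chr12:16540914-16561051, minus strand: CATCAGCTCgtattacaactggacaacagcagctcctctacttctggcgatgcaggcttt

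The 2 Mlh3 probes share their last 52 bases and differ only in the 8 bases of the donor exon. Such sharing is common. The 7445 probes have 5034 distinct upstream ends, and 3808 of them share that end with another. Probes that share an upstream end are therefore not independent measurements.

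**Figure D1:**
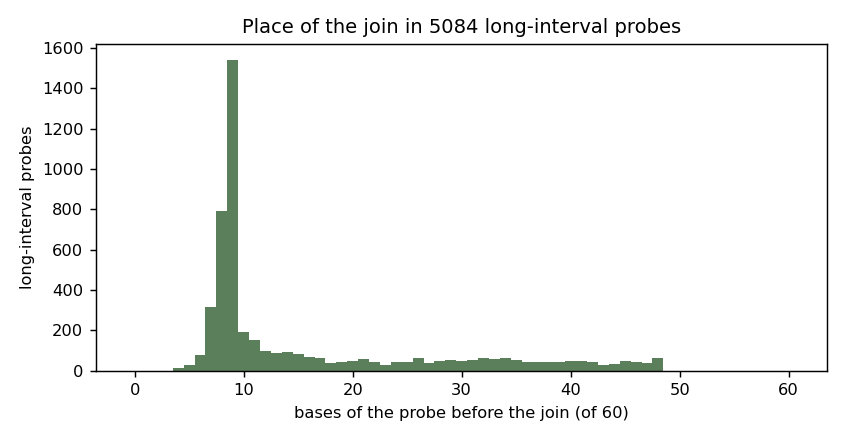
Number of long-interval probes (vertical axis) by the number of bases before the join out of 60 (horizontal axis), for the 5084 probes in which the join could be placed. The counts pile up at the left, with a median of 9 bases.

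The intervals run from 10001 to 474889 bases, with a median of 21847. The grid named in the file headers refers to mm9, but the interval names fit GRCm38. Of 723 interval probes that share at least 24 bases with probes of a single gene, 706 lie inside that gene on GRCm38, while of 665 that share bases with a probe positioned on mm9 only 47 overlap it at those numbers. Host genes were therefore read from RefSeq gene spans of GRCm38.p6 on the same strand. In this way 7255 of the 7445 probes had a single host, 2299 hosts in all. Of these hosts 1005 had a single long-interval probe and 120 had 10 or more.

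Signals are given as log2 of the processed intensity relative to each array's 75th percentile over the probes detected on every array, and differences are oxaliplatin minus control, ± SE. Between 27.2% and 40.9% of all non-control probes were well above background on an array. Among all 19729 intervals of that length the share was 37.8% to 45.3% on the control arrays. It was 31.8%, 20.1%, 39.6% and 35.4% on oxaliplatin arrays 1 to 4, so oxaliplatin array 2 saw the fewest and array 3 lay within the control range. All 4 arrays of a group were on 1 slide and the other group on another, so slide and group cannot be told apart. Oxaliplatin arrays 1 and 2 also carry another run name than the other 6 arrays. Of the cell type markers read on the same arrays, 4 of 4 red blood cell genes and 4 of 9 hepatocyte genes were higher on the oxaliplatin arrays. The summed level of the red blood cell genes ran from 4.18 to 6.29 in controls and from 6.47 to 7.25 with oxaliplatin, and that of the hepatocyte genes from 8.88 to 8.93 and from 9.24 to 9.36. For Kupffer cells 2 of 5 markers were higher, with sums of 3.94 to 4.65 against 4.64 to 5.60. For T and B cells 2 of 3 were higher, with sums of -1.63 to -1.36 against -0.65 to -0.56, and for sinusoidal endothelium 1 of 6 was lower, with sums of 4.32 to 4.43 against 4.29 to 4.58. No marker of stellate cells (5), cholangiocytes (4) or neutrophils (3) passed the test. The part of these cell types in the results was not tested, and in whole liver fewer cells of a type and less RNA per cell cannot be told apart. All directions follow the group labels. The p53 targets Cdkn1a, Phlda3 and Ccng1, which DNA damage is known to raise, were lower on the arrays labelled oxaliplatin, by log2 differences of -3.50 ± 0.67, -3.46 ± 0.18 and -1.47 ± 0.11 (limma adjusted p = 0.0130, 0.000686 and 0.00117). Whether the labels were exchanged was not tested.

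The first comparison asks which long-interval transcripts differed between the livers. Of the 7445 probes, 596 were higher and 475 lower with oxaliplatin at an adjusted p under 0.05 in limma, with the adjustment made over all 54636 probes tested. That is 8.01% higher and 6.38% lower, or 14.4% in either direction. Over all probes tested 16.2% were called, 10% higher and 6.2% lower, so the share of long-interval probes called was close to that of the array as a whole. The median difference was -0.03, against 0.02 over all probes. At least a 2-fold difference was reached by 125 of the higher and 126 of the lower probes. The groups did not overlap for 1655 probes (22.2%), against 25.0% of all probes, and for 977 (26.5%) of those above background on all 8 arrays, against 27.0% of all such probes. Shorter intervals gave 619 higher and 668 lower of 8862.

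The balance between higher and lower calls depended on how the arrays were put on 1 scale. Of the long-interval calls 55.6% were higher here, 42.8% after centring on the median, 34.7% after quantile normalization and 33.3% when the percentile was taken over all probes. It was 89.4% after normexp background correction. Over all probes tested the share moved in the same order, at 61.7%, 49.7%, 46.6% and 40.3%, and 76.9% after normexp. The dependence on scaling was therefore not particular to the long-interval probes. The percentile over all probes moved the median of all tested probes to -0.09. Single libraries also counted. Leaving out control array 3 left 296 higher and 187 lower, and leaving out oxaliplatin array 3 left 289 and 247. Without oxaliplatin array 4 there were 333 and 276. The lower calls fell to 258 without control array 1, 283 without control array 4 and 242 without oxaliplatin array 2. Within the 6 arrays of 1 run name, which leave 2 oxaliplatin arrays, there were 162 higher and 111 lower, and with the run name in the model 203 and 111. In every one of the 19 settings that tested them 141 probes kept their call, 119 of them higher and 22 lower. The setting limited to probes above background on all 8 arrays tested 109 of these.

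Long-interval probes detected on all 8 arrays were more often higher than lower, as were all probes detected on every array. There were 3688 of them, with 424 higher and 165 lower (11.5% and 4.47%). Over all probes detected on every array 10.9% were higher and 5.55% lower (16.4% called), so the shares were close. Among the other 3757 probes 172 were higher and 310 lower. Of the 3757, 189 were above background on all 4 control arrays and on no oxaliplatin array, and 2 showed the reverse. Such probes passed the filter through 1 group alone. The lowest signal well above background was -5.83 to -4.57 on the oxaliplatin arrays, against -6.38 to -5.88 on the controls. All probes of this detection class were not read, so its split is not taken as a result. For the long-interval probes on all 8 arrays the share of higher calls was 72.0%, against 66.2% for all probes detected on every array. With the percentile over all probes it was 45.7% (312 higher and 370 lower), against 40.3% over all probes tested, detected on every array or not. Leaving out an array left 216 to 408 higher and 50 to 163 lower. The count of higher calls fell by over 1.5 times without control array 3 (218), oxaliplatin array 3 (216) or oxaliplatin array 4 (256), and that of lower calls without any array other than control array 2 (163) or oxaliplatin array 1 (125).

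Most calls among the brightest long-interval probes were higher, as were 66.2% of the calls over all probes detected on every array. Of 339 probes with a mean signal above -1, 72 were higher and 11 lower (21.2% and 3.24%), and the percentile over all probes gave 59 and 24. At the dim end, below -5, 116 of 2001 were higher and 161 lower, which normexp turned to 346 and 4. In the same way intervals over 100 kb had 41 higher and 21 lower of 356, but 33 and 31 under the percentile over all probes and 36 and 37 after quantile normalization. Probes with 20 to 40 bases before the join, which hold the most of both exons, had 127 higher and 47 lower of 1036, and 97 and 86 under the percentile over all probes. The share of higher calls was 86.7% in the brightest class, 41.9% at the dim end, 66.1% over 100 kb and 73.0% with 20 to 40 bases. Over all probes tested, of any signal, it was 61.7%. All array probes of the same signal were not counted, so these splits are not taken as particular to long-interval probes. Signal, span and place of the join were read as descriptions with no test of the difference between classes. Single arrays moved these counts. Without oxaliplatin array 3 the brightest class had 47 higher and 2 lower, and its lower calls were 1 to 7 without control array 1, 3 or 4 or oxaliplatin array 2 or 4. The intervals over 100 kb had 21 higher and 6 lower without control array 3, 24 and 14 without oxaliplatin array 3, 24 and 11 without oxaliplatin array 4, and 12 lower without control array 1. With 20 to 40 bases before the join there were 63 higher and 18 lower without control array 3, 63 and 23 without oxaliplatin array 3, and 71 and 34 without oxaliplatin array 4. Oxaliplatin array 1 left 82 higher in that class, and control array 1, control array 4 and oxaliplatin array 2 left 22, 26 and 25 lower. At the dim end there were 56 higher and 68 lower without control array 3, 52 and 115 without oxaliplatin array 3, 56 higher without oxaliplatin array 4, 62 higher without oxaliplatin array 1, and 90, 92 and 98 lower without control array 1, control array 4 and oxaliplatin array 2.

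**Figure D2:**
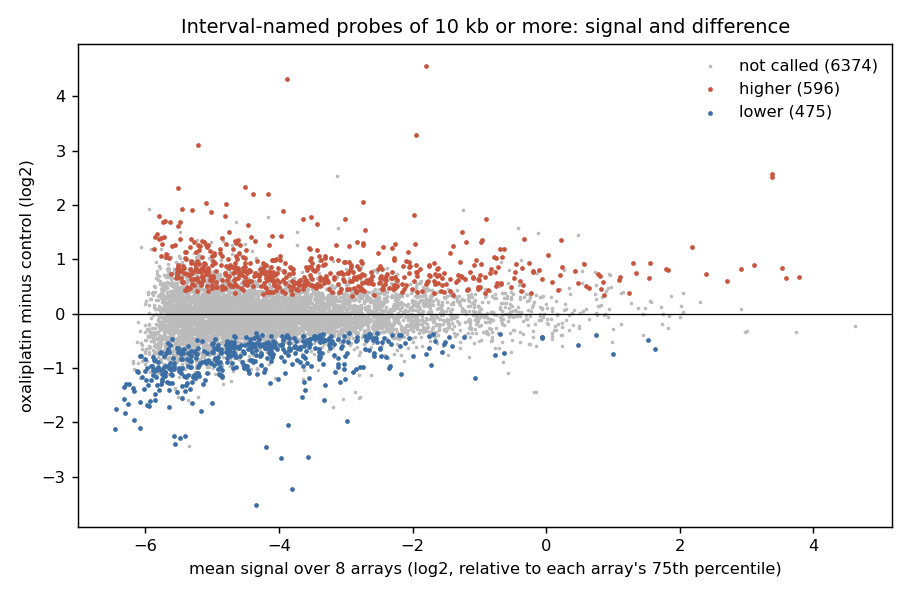
Difference between the group means (vertical axis, log2, oxaliplatin minus control) against the mean signal over 8 arrays (horizontal axis, log2 relative to the 75th percentile) for the 7445 long-interval probes, with the 596 higher in red and the 475 lower in blue. The bright right end holds mostly higher calls, and lower calls gather among the dim probes. Dim probes could pass the filter through the control arrays alone, so their split is not taken as a result. All array probes of the same signal were not counted, so neither end is taken as particular to long-interval probes.

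The largest rises came from loci with different functions. The interval in Garnl3, which encodes a protein with a Rap GTPase-activating domain, had signals of -4.57, -2.29, -3.81 and -5.65 on control arrays 1 to 4. On the oxaliplatin arrays they were 0.61, -0.52, 0.87 and 0.96. The groups lay far apart, with control array 2 nearest to the oxaliplatin arrays, and the difference was 4.56 ± 0.66 (limma adjusted p = 0.00553). The second long-interval probe in Garnl3 differed by 0.13 and was not called. Thsd7b, a thrombospondin-domain gene, had -6.11, -4.20, -5.90 and -7.94 in controls and -1.52, -2.85, -1.30 and -1.18 with oxaliplatin. It was well above background on only 1 control array and differed by 4.33 ± 0.72 (limma adjusted p = 0.00856). Galnt13, a glycosyltransferase that starts O-linked sugar chains, was likewise above background on 1 control array and differed by 3.10 ± 0.42. For both, the other 3 control signals were not well above background, so the size of the difference rests on signals of uncertain level. None of these 3 hosts had a tested mRNA probe.

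Rtn3 encodes a reticulon that shapes the endoplasmic reticulum. Its interval had signals of -3.92, -2.66, -3.67 and -4.14 in controls and -0.38, -0.99, -0.19 and 0.37 with oxaliplatin, without overlap. The difference was 3.30 ± 0.37 (limma adjusted p = 0.00317), while the brightest Rtn3 mRNA probe differed by 0.16 ± 0.10 and was not called.

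Both Mlh3 probes were among the brightest and among the largest rises. MLH3 is a mismatch repair protein that also acts in meiotic crossing over. The interval chr12:85247612-85261752 had signals of 1.68, 3.13, 2.14 and 1.44 in controls and 4.84, 4.17, 4.85 and 4.83 with oxaliplatin. Control array 2 was again the highest control and oxaliplatin array 2 the lowest of its group, and the groups did not overlap. The differences of the 2 probes were 2.58 ± 0.35 and 2.51 ± 0.36 (limma adjusted p = 0.00478 and 0.00537), against 0.33 ± 0.11 for Mlh3 mRNA, which was not called (adjusted p = 0.0697).

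The shared part of the Mlh3 probes holds a run of CTG repeats. The motif CTGCTGCTGCTG, searched on both strands and counted once per probe, was in 4 of the 7445 long-interval probes (0.0537%). It was in 13 of the 37852 interval-named probes of any span, detected or not (0.0343%). All 4 long-interval probes with it were higher, among them the Mlh3 pair and 1 in Vps41 (0.90 ± 0.09). Without control array 3 there were 3. Among all 54636 tested probes 25 held it, of which 17 were higher and 3 lower, with a median difference of 0.90. The search was chosen after the sequences and values were seen.

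Of the other large rises, Cmah moved with its host. CMAH makes the sialic acid Neu5Gc, and all 3 of its long-interval probes rose, by 1.74 to 2.33. The brightest Cmah mRNA probe rose by 2.14 ± 0.47 (limma adjusted p = 0.0210). Within the 6 arrays of 1 run name 1 of the 3 was called, and the interval with the largest rise was not (2.21, adjusted p = 0.0797). Snx27, a sorting nexin of endosomal recycling, had -5.23, -4.88, -5.83 and -5.15 in controls and -2.71, -4.04, -2.61 and -2.89 with oxaliplatin. The difference was 2.21 ± 0.34. Snx27 had 14 long-interval probes, 2 of them higher and 2 lower. Sema5b, a semaphorin, differed by 2.06 ± 0.24. Of its 2 tested mRNA probes the brightest was at 0.07 and the other at 2.59, so the mRNA probes disagreed. The interval in Ubn2, a chromatin gene, was not well above background on any control array and at least 2.85-fold higher with oxaliplatin, comparing group means with the lowest signal well above background on each control array. Its call was lost within 1 run name (adjusted p = 0.0672) and after normexp (adjusted p = 0.0609). The other 8 of the 10 largest rises kept their call in every setting that tested them.

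The largest falls were in 2 forms. One was a spread within the oxaliplatin group. The interval chr2:112825793-112849686, which has no single host, had signals of -2.91, -3.25, -2.17 and -2.0 in controls and -3.40, -6.71, -6.46 and -7.85 with oxaliplatin. Oxaliplatin array 1 lay next to the controls and the other 3 far below, so the difference of -3.52 ± 0.84 passed narrowly (limma adjusted p = 0.0267). The intervals chr15:44787603-44856590 and chr1:93835286-93909291, also without a single host, had oxaliplatin array 1 nearest to the controls as well, at -3.24 ± 0.86 and -2.04 ± 0.49. So did Phf2, a histone demethylase gene (-2.66 ± 0.62), and Smyd3, a lysine methyltransferase gene (-1.97 ± 0.56). The difference was below -1 for these 5 whichever array was left out, but all 5 calls were lost without control array 3, control array 4, oxaliplatin array 3 or oxaliplatin array 4, with adjusted p between 0.0557 and 0.111.

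Lpin1 fell together with its mRNA. Lipin 1 is a phosphatidate phosphatase of lipid synthesis. Its interval had -2.85, -3.94, -3.53 and -1.56 in controls and -4.91, -6.80, -5.31 and -4.64 with oxaliplatin, a difference of -2.45 ± 0.60 (limma adjusted p = 0.0295). The brightest Lpin1 mRNA probe differed by -2.08 ± 0.53 (adjusted p = 0.0323), and the ratio of the 2 did not pass (adjusted p = 0.338). The call of the interval was lost without control array 1 or 3 or oxaliplatin array 2 or 3, with adjusted p between 0.0518 and 0.0682.

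The other form was a signal present in controls and near background with oxaliplatin. Exoc4 encodes a subunit of the exocyst, Abcd4 a lysosomal transporter for vitamin B12, and Ahcyl2 a relative of adenosylhomocysteinase. Their intervals were well above background on all control arrays and on no oxaliplatin array. For Exoc4 the signals were -4.16, -5.35, -4.18 and -3.76 in controls and -6.10, -6.67, -6.65 and -7.60 with oxaliplatin, without overlap, which is at least 1.90-fold lower. Abcd4 was at least 2.0-fold lower and Ahcyl2 at least 1.20-fold lower. The interval in Megf10, an engulfment receptor gene, had the same pattern, but its control signals were too close to the lowest detectable ones for a bound. The measured differences of these 4 were -2.39, -2.26, -2.13 for Megf10 and -2.11, with limma adjusted p between 0.00338 and 0.0111. All 4 passed the filter through the control arrays alone and were picked for their falls. Their p-values are therefore not taken as support. Normexp correction reduced the differences to between -0.43 and -0.20, and only Abcd4 kept its call there. Ahcyl2 also lost its call within 1 run name (adjusted p = 0.0548). For Exoc4 and Abcd4 the brightest mRNA probe was lower too, by -0.68 ± 0.17 and -1.18 ± 0.30 (limma adjusted p = 0.0320 and 0.0327). For Ahcyl2 it went the other way, higher by 0.47 ± 0.13 (limma adjusted p = 0.0398), and Megf10 had no tested mRNA probe.

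Within these 20 probes single arrays kept recurring places. Among the 10 largest rises control array 2 was the highest control in 7 and control array 4 the lowest in 7, and oxaliplatin array 2 was the lowest of its group in 7. Among the 10 largest falls control array 4 was the highest control in 9, control array 2 the lowest in 8, and oxaliplatin array 1 the highest of its group in 7.

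**Figure D3:**
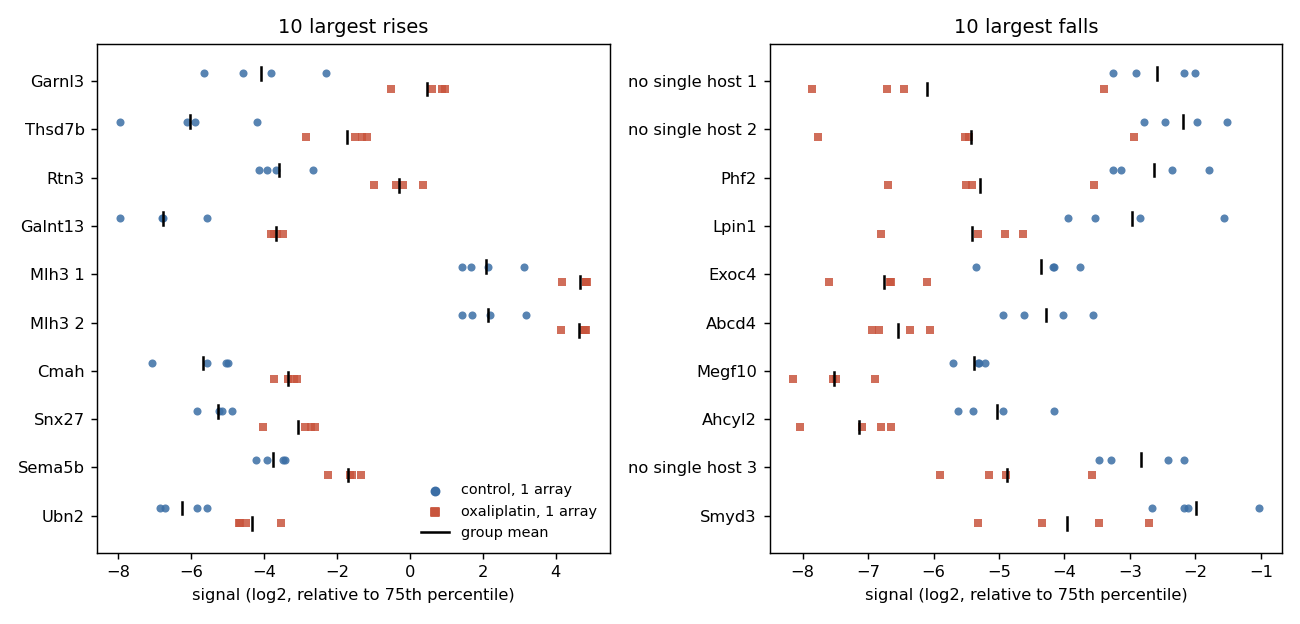
Signal of each array (horizontal axis, log2 relative to the 75th percentile) for the 10 largest rises and the 10 largest falls, with control arrays as blue circles, oxaliplatin arrays as red squares and group means as bars. The groups do not overlap in any row, and in several falls 1 oxaliplatin array lies next to the controls.

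The brightest interval of all, in the fibronectin gene Fn1, differed little. Its signals were 4.67, 4.50, 4.74 and 5.06 in controls and 4.97, 4.44, 4.30 and 4.36 with oxaliplatin, and the groups overlapped (-0.23 ± 0.18, limma adjusted p = 0.417). Trpm4 encodes a calcium-activated cation channel. Its interval had 3.38, 3.54, 3.47 and 3.38 in controls and 4.06, 4.15, 4.13 and 4.11 with oxaliplatin, a tight rise of 0.67 ± 0.09 (adjusted p = 0.00469) that kept its call in every setting. The interval in Adk, adenosine kinase, was lower by -0.34 ± 0.11 without overlap and did not pass (adjusted p = 0.0659), but passed under 5 other settings, with adjusted p between 0.0277 and 0.0448.

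Dab1 held 3 of the 8 brightest intervals. DAB1 is the adaptor that carries the reelin signal. The 3 start at 103951834 on chromosome 4, span 24211, 226178 and 328746 bases and rose by 0.84 ± 0.15, 0.66 ± 0.12 and 0.89 ± 0.11 (limma adjusted p = 0.00970, 0.0122 and 0.00389). They share an upstream end and so most of their sequence. Within 1 run name the first 2 lost their call (adjusted p = 0.0526 and 0.0614). In the longest, signals were 2.87, 2.65, 2.69 and 2.48 in controls and 3.50, 3.58, 3.54 and 3.63 with oxaliplatin. Dab1 mRNA rose by a similar 0.68 ± 0.16 (adjusted p = 0.0263), and the 3 ratios did not pass (adjusted p between 0.389 and 0.953).

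Of the 3 longest intervals 1 was called. The 444878 bases in Foxp1, a forkhead factor, rose by 0.76 ± 0.17 (limma adjusted p = 0.0235), with signals of -3.43, -3.27, -3.83 and -3.26 in controls and -2.57, -2.50, -3.05 and -2.62 with oxaliplatin. The call was lost without control array 3 or oxaliplatin array 1, 2 or 4 (adjusted p between 0.0526 and 0.0604). The longest, in the catenin gene Ctnnd2, differed by -0.14 ± 0.36 and that in the RNA-binding protein gene Celf2 by 0.58 ± 0.21, both with overlapping groups. Celf2 passed only without control array 1, at 0.74 (adjusted p = 0.0377). At the lower limit, the shortest intervals kept were in Csad, Ptprg and Gigyf2 (10001, 10006 and 10007 bases), with differences of 0.07, -0.74 and -0.24. The longest left out were in Ilkap, Spata5 and Pak2 (9998, 9992 and 9991 bases), with differences of -0.01, -0.94 and 0.04.

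The 5 hosts with most long-interval probes behaved differently from each other. Dennd1a, an exchange factor for Rab35, had 42, of which 2 were higher and 4 lower, with a median of -0.26. Neither higher call held without control array 3 or oxaliplatin array 3 or 4, 1 held without control array 2 or 4 or oxaliplatin array 1, and 2 of the lower calls remained without control array 3. Gphn, the gephyrin gene of molybdenum cofactor synthesis and inhibitory synapses, had 35, of which 10 were lower and 1 higher. Its median was -0.38, with 32 of 35 below 0, while Gphn mRNA differed by 0.03 ± 0.23. The 10 lower calls fell to 3 without control array 3, 5 without oxaliplatin array 3, 2 under normexp and 1 within 1 run name, and rose to 14 without control array 4. Mllt10, a partner of the histone methyltransferase DOT1L, had 35, of which 7 were higher by 0.46 to 1.89 while the median was 0.04. Leaving out any array kept at least 6 of the 7, and 3 remained within 1 run name. Dlg1, a membrane scaffold, had 34 with a median of -0.04 and none called by limma, with 2 lower at an unadjusted p under 0.05.

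Vwa8, a mitochondrial ATPase-domain gene, had 41 long-interval probes, 39 of them detected on all 8 arrays. The differences of all 41 were above 0, from 0.12 to 1.26 with a median of 0.51. None passed limma after adjustment, and 9 were higher at an unadjusted p under 0.05. Their median level ran from -3.80 to -2.22 on the control arrays and from -2.71 to -2.36 on the oxaliplatin arrays, so the control arrays spread over the whole oxaliplatin range. Without control array 2, 31 of the 41 were higher, and without control array 4, 1 was. Probes of 1 locus share sequence and transcript, so their common sign counts as 1 locus.

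Beyond these 5, hosts were chosen after their values were seen, for having at least 5 long-interval probes called in 1 direction. There were 20 of them among 665 hosts with a called probe, and 40 hosts had calls in both directions. For Srebf2, the master regulator of cholesterol synthesis genes, 2 of 7 long-interval probes were above background on all 8 arrays. All 7 were lower, by -1.12 to -0.66. Leaving out any array kept at least 5, but normexp kept 1. Srebf2 mRNA was at -0.49 ± 0.15 and did not pass (limma adjusted p = 0.0545). Ghr encodes the growth hormone receptor, which is abundant in liver. All 23 of its probes were above 0 and 7 were called, while its brightest mRNA probe was at 0.94 ± 0.30 (adjusted p = 0.0641). The 7 calls fell to 1 without control array 1 or oxaliplatin array 2, 3 or 4, to 2 without control array 3, and rose to 14 without control array 2. Rev1 encodes a polymerase and scaffold of synthesis across DNA lesions. Its 8 probes were all below 0 and 5 were called, but none in limma under normexp (1 lower at an unadjusted p under 0.05), 1 without oxaliplatin array 4, and 2 without control array 1, control array 3 or oxaliplatin array 2. Of the 8, 1 was above background on all 8 arrays. Rev1 mRNA was lower by -0.61 ± 0.10 (adjusted p = 0.00904).

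Ehmt1, a histone H3K9 methyltransferase gene, had 8 of 13 probes higher, with a median of 0.68, and the count fell to 3 without control array 3 and 5 without oxaliplatin array 3 or 4. Its mRNA was at 0.20 ± 0.11 and was not called. In Rbfox1, a neuronal splicing factor gene with no tested mRNA probe, 6 of 11 were higher, and at least 5 remained called when any array was left out. Dcc, the netrin receptor gene, had 5 of 9 higher, of which at least 4 were called without any 1 array, and Ctnnd2 had 5 of 11, falling to 3 without control array 3 or oxaliplatin array 1, 3 or 4. Neither had a tested mRNA probe. Over all hosts without a tested mRNA probe, 58 of 365 long-interval probes were higher and 11 lower (15.9% and 3.01%), against 517 and 448 of 6890 where the mRNA was tested. With the percentile over all probes there were 48 higher and 20 lower, and with the run name in the model 28 and 3, while under normexp 114 were higher. The 11 lower fell to 3 without control array 3 and to 7 without control array 1, 2 or 4 or oxaliplatin array 3 or 4.

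**Figure D4:**
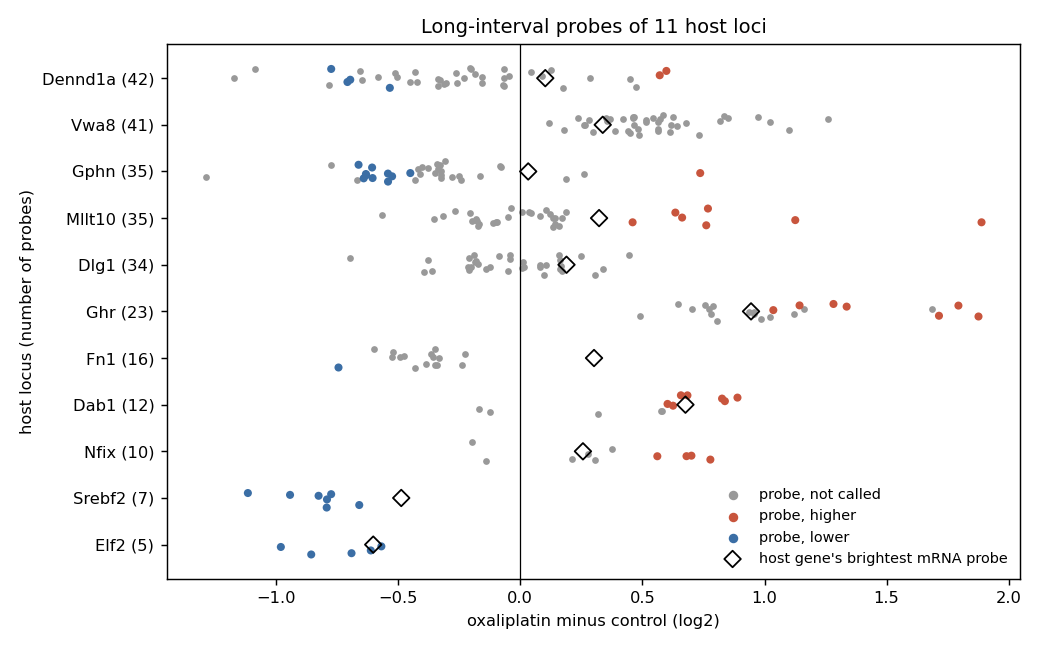
Difference between the groups (horizontal axis, log2, oxaliplatin minus control) for every long-interval probe of 11 host loci (rows, with the number of probes). Points in red and blue were called higher and lower, grey points were not called, and diamonds mark the brightest mRNA probe of the host. Vwa8 and Ghr lie wholly above 0, Srebf2, Elf2 and Fn1 wholly below.

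Hosts well known for circular RNA gave no higher share of calls. Of 35 listed genes 21 had long-interval probes, 150 in all, of which 10 were higher and 11 lower (14%, against 16.2% of all probes tested). The split was 5 higher and 19 lower with the percentile over all probes, 20 and 5 under normexp, and 2 and 1 within 1 run name. Leaving out an array left 2 to 9 higher and 4 to 11 lower, with the lowest counts without control array 3 (3 and 4), oxaliplatin array 3 (2 and 6) and oxaliplatin array 4 (4 and 5), and with 7 lower without control array 1, control array 4 or oxaliplatin array 2. Hipk3 has a circular form that has been described in liver. Whether its 1 long-interval probe, spanning 15908 bases, reads that form was not examined. The signals of this probe were -3.06, -3.37, -3.12 and -2.73 in controls and -3.58, -3.75, -3.83 and -3.75 with oxaliplatin, without overlap. It was lower by -0.66 ± 0.14 (limma adjusted p = 0.0206), near the -0.49 ± 0.12 of Hipk3 mRNA, and lost its call without control array 3 or oxaliplatin array 3 or 4 (adjusted p between 0.0510 and 0.0611). All 5 probes of the ETS factor gene Elf2 were lower, by -0.98 to -0.57, and 0 of them were above background on all 8 arrays. Of its 2 tested mRNA probes the brightest was at -0.60 ± 0.14 and the other at 1.16, so the mRNA probes disagreed. Normexp kept 1 of the 5, and 2 remained without control array 1, control array 3 or oxaliplatin array 4, and 3 without control array 4 or oxaliplatin array 3.

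Nfix, a nuclear factor I gene, had 4 of 10 probes higher, by 0.56 to 0.78. The brightest of the 4 had signals of 0.97, 0.94, 0.65 and 0.49 in controls and 1.26, 1.33, 1.66 and 1.53 with oxaliplatin. All 4 share an end with another of them, and Nfix mRNA was at 0.26 ± 0.13 and was not called. The 4 calls fell to 2 without control array 3 or oxaliplatin array 4 and to 1 without oxaliplatin array 3. Mbnl1, a splicing factor gene whose protein favours a circle from its own gene, had 2 of 7 higher, by 0.61 ± 0.15 and 0.59 ± 0.17. Whether these intervals are that circle was not examined. Both probes lost their call when the percentile was taken over all probes (adjusted p = 0.0548 and 0.0848). Without control array 3 or 4 or oxaliplatin array 2, 3 or 4 neither was called. Single probes were higher in Zranb1 (0.46), Birc6 (1.04), Rhobtb3 (0.71) and Stau2 (1.03) and lower in Ncoa2 (-0.60), Pan3 (-0.48) and Atxn10 (-0.49). Those in Rhobtb3 and Ncoa2 kept their call whichever array was left out. Zranb1 lost it without control array 3 or 4 or oxaliplatin array 1, 3 or 4, and Stau2 without control array 3 or oxaliplatin array 1, 2 or 3. The call of Birc6 held only without control array 2 or 4, that of Pan3 only without control array 2, and that of Atxn10 only without control array 4 or oxaliplatin array 1. The 2 lower probes of the focal adhesion kinase gene Ptk2, at -0.74 and -0.84, were called among 20. Neither passed after normexp, where the second was at 0.027 (adjusted p = 0.783), and neither passed without oxaliplatin array 2.

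The second comparison asks whether a long-interval transcript changed by another amount than the mRNA of its host. The ratio of the 2 probes within each array was tested for 6890 pairs, with the brightest mRNA probe as the host. It was higher with oxaliplatin in 489 and lower in 604, or 15.9%, against 15.8% of all 14995 pairs of interval probe and host (6.85% higher, 8.91% lower). Of the 517 higher probes in these pairs the host was higher in 86 and lower in 8, and of the 448 lower probes the host was lower in 87 and higher in 20. The differences of probe and host correlated at r = 0.365 across the 6890 pairs, which share arrays and hosts. Pairs of long-interval probes with the same upstream end correlated at 0.669 (4251 pairs), and those of 1 host with no shared end at 0.332 (17695 pairs). Within 1 run name it was higher in 164 and lower in 178. Without control array 3 the ratio was higher in 209 and lower in 257, and without control array 4 in 255 and 297. The higher ratios fell to 297 without control array 2, 306 without oxaliplatin array 1 and 300 without oxaliplatin array 4, and both counts fell to 262 and 357 without oxaliplatin array 3.

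**Figure D5:**
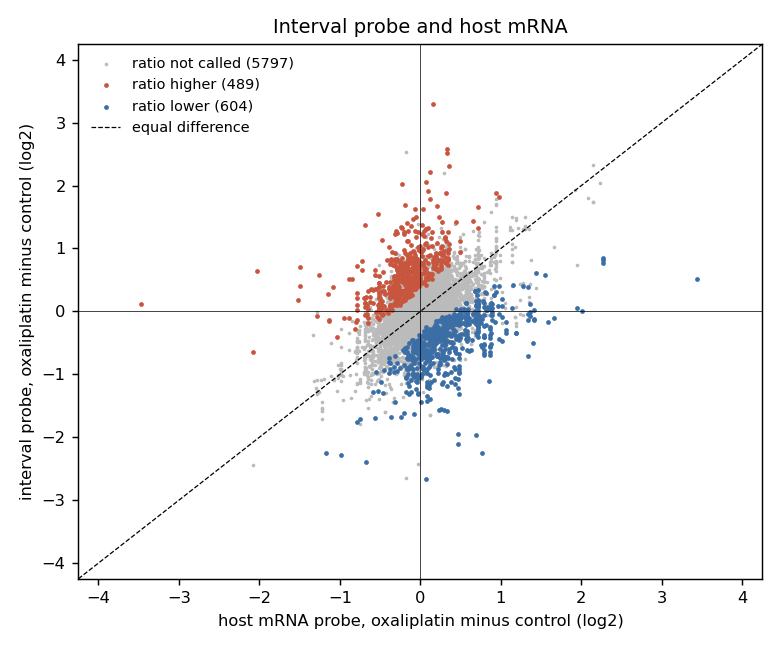
Difference of each long-interval probe (vertical axis, log2, oxaliplatin minus control) against that of its host's brightest mRNA probe (horizontal axis, log2), for 6890 pairs, with a dashed line at equal difference. The 489 pairs with a higher ratio are red and the 604 with a lower ratio blue.

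The smallest p-values of the ratio were at Fer, Hhat, Lncpint, Asap1 and Pecam1. Lncpint is a long noncoding RNA that p53 induces. Its interval had -3.38, -3.50, -3.72 and -3.36 in controls and -2.16, -2.08, -1.78 and -1.77 with oxaliplatin, while the probe of its linear form had -0.82, -1.35, -1.41 and -0.82 in controls and -1.56, -1.65, -1.72 and -1.56 with oxaliplatin. The interval was higher without overlap by 1.54 ± 0.14 (limma adjusted p = 0.00195), the linear probe was at -0.52 ± 0.16 (adjusted p = 0.0617), and the ratio differed by 2.07 ± 0.15 (adjusted p = 0.00209). Another 4 of the 6 long-interval probes of Lncpint were not called and 1 was lower, a call that held only without control array 2 or oxaliplatin array 4 when an array was left out.

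PECAM1 is the adhesion molecule CD31 of endothelial cells and platelets. One of its 3 long-interval probes had -5.02, -5.16, -4.87 and -5.07 in controls and -3.43, -3.72, -3.74 and -3.86 with oxaliplatin. All oxaliplatin arrays were above all controls, by 1.34 ± 0.12 (limma adjusted p = 0.00211). Pecam1 mRNA was at -0.25 ± 0.11 (adjusted p = 0.162), and the ratio differed by 1.59 ± 0.16 (adjusted p = 0.00301). Another of the 3 was lower, at -1.16, a call lost without control array 3 or 4 or oxaliplatin array 3, and the third was not called. Asap1 encodes an Arf GTPase-activating protein. One of its 18 probes had -5.58, -5.88, -6.00 and -5.76 in controls, above background on 1 array, and -4.53, -4.41, -4.51 and -4.76 with oxaliplatin. It was higher by 1.25 ± 0.13 and its ratio by 1.55 ± 0.14 (adjusted p = 0.00273 and 0.00237), and the ratio was higher in 9 of the 18. That count fell to 4 without control array 3 and 5 without control array 4, and against the mean of the Asap1 mRNA probes 1 ratio was higher and 1 lower.

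Hhat, the acyltransferase of hedgehog proteins, and Fer, a tyrosine kinase, went the other way. The Hhat interval had -5.24, -5.26, -5.42 and -5.28 in controls and -6.27, -6.67, -6.84 and -6.67 with oxaliplatin, where it was not well above background on any array, too near the floor for a bound. Hhat mRNA had -1.76, -1.93, -2.30 and -2.17 in controls and -1.50, -1.47, -1.55 and -1.71 with oxaliplatin, higher by 0.48 ± 0.14 (limma adjusted p = 0.0486). Fer mRNA was higher by 0.87 ± 0.15 (adjusted p = 0.00933), and the ratio was lower in 10 of its 12 long-interval probes, or in 9 or 10 without any 1 array. In the longest-spanning of the 2 named, signals were -4.86, -4.95, -5.14 and -4.72 in controls and -5.77, -5.76, -5.49 and -5.41 with oxaliplatin. It differed by -0.69 ± 0.14 (adjusted p = 0.0144) and its ratio by -1.56 ± 0.13 (adjusted p = 0.00209). This interval was well above background on 4 control arrays and 1 oxaliplatin array. Under normexp its difference was -0.06 (limma adjusted p = 0.539). Its call was also lost with the run name in the model and within 1 run name (limma adjusted p = 0.0747 and 0.0973). The other Fer mRNA probes ranged down to -0.39, so the ratio rests on the brightest of 4, and against their mean it was lower in 2 of the 12.

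In 28 pairs, from 19 hosts, the probe and its host were called in opposite directions: 8 with the interval higher and 20 with it lower. Of the 20, 9 were not above background on any oxaliplatin array. The 8 pairs in which the interval was detected on all arrays are described here, chosen after their values were seen. The mRNA value of each rests on the brightest probe of the host, and the other mRNA probes of these hosts are not given. The Stxbp5 interval, in the gene of the syntaxin-binding protein tomosyn, had -0.73, -1.02, -1.41 and -0.93 in controls and 1.17, 0.21, 0.19 and -0.16 with oxaliplatin. It was higher by 1.38 ± 0.28, while Stxbp5 mRNA was lower by -0.68 ± 0.20 (limma adjusted p = 0.0161 and 0.0497). The Osbpl10 interval, in an oxysterol-binding protein gene, had 1.27, 1.26, 1.28 and 1.05 in controls and 1.75, 1.91, 1.98 and 1.82 with oxaliplatin, higher by 0.65 ± 0.10. Its mRNA probe was well above background on all control arrays and on no oxaliplatin array, so it was at least 1.33-fold lower. The Odf2 interval, in a gene of centriole appendages, rose by 0.58 ± 0.10 against -1.25 ± 0.19 for the mRNA. In the same way the intervals in Mtdh (1.02), Map4k4 (0.73) and Nsd1 (0.47) were higher and their mRNAs lower, at -0.39, -0.79 and -0.37. Rptor, the mTORC1 scaffold gene, and Pla2g6, a phospholipase gene, had the interval lower, at -0.47 and -0.54, and the mRNA higher, at 0.34 and 0.76. Leaving out any 1 array left 3 to 8 of the 28 pairs called in opposite directions. The Odf2 and Osbpl10 pairs were among them each time, Mtdh without control array 1 or 4 or oxaliplatin array 2, Pla2g6 without control array 2 or oxaliplatin array 1, and Stxbp5 without control array 4. With the run name in the model the Osbpl10 pair was the 1 that remained, and within 1 run name 0 remained in limma (20 at an unadjusted p under 0.05), while 13 of the 28 remained with the percentile over all probes and 6 under normexp.

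In Fn1 the ratio depended on which mRNA probe was the host. All 16 long-interval probes of Fn1 were below 0, from -0.75 to -0.23, and 1 was called. That call was lost without any array other than oxaliplatin array 1, which left 5 called. The ratio to the brightest Fn1 mRNA probe (0.30 ± 0.12) was lower in 15 of 16. Against the mean of the Fn1 mRNA probes, which ranged from -0.39 to 0.30, it was lower in 4. The 15 fell to 7 without control array 2, 4 without control array 3, 5 without control array 4, 9 without oxaliplatin array 2, 4 without oxaliplatin array 3 and 5 without oxaliplatin array 4.

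Genes known to act on circular RNA differed little. Of 39 listed genes 38 were tested, with 2 higher, 2 lower and a median of -0.04, against 9.66% higher and 5.88% lower of 13871 genes (15.5% called). Of the lower genes, Nudt21, which encodes a cleavage factor subunit and was listed under the making of circles, had 1.05, 0.93, 1.28 and 1.86 in controls and 0.51, 0.52, 0.55 and 0.62 with oxaliplatin, without overlap (-0.73 ± 0.19, limma adjusted p = 0.0373). The higher genes were listed under turnover: the GW182 family gene Tnrc6c (0.35 ± 0.10, adjusted p = 0.0488) and Rpp25, of RNase P and MRP (0.85 ± 0.23, adjusted p = 0.0406). None of the 3 inhibitors of back-splicing (Adar, Adarb1, Dhx9), 2 export helicases (Ddx39a, Ddx39b) or 7 genes of modification and translation passed, by limma, in the same fit. The 2 higher genes fell to 0 in limma without any 1 array other than control array 1, which left 1, with 2 to 4 higher at an unadjusted p under 0.05. The 2 lower genes fell to 0 without oxaliplatin array 3 (3 at an unadjusted p under 0.05) and to 1 without control array 3 or oxaliplatin array 1, 2 or 4.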

How the data were processed

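RNA of 8 male mouse livers was hybridised to 1-colour Agilent arrays, 4 control and 4 oxaliplatin. The deposited intensities are the processed signals of Feature Extraction 12.0.3.1, background-corrected, per the file headers, and the submitters' processing notes name version 10.7 and limma. From them, log2 of the signal minus each array's 75th percentile over the 38453 non-control probes well above background on all 8 arrays was computed. Spots called outliers by the scanner software (5 among these probes, none saturated) were then left out. The 54636 probes well above background on at least 4 of 8 arrays were fitted with limma 3.58.1 in R 4.3.3 (lmFit, eBayes, Benjamini-Hochberg over all probes, threshold 0.05), and ratios to hosts over all 14995 pairs of interval probe and host. The code was tested on simulated data. With 4 arrays a group, the number of arrays limits the precision, and p-values measure the spread between these arrays.

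Hosts were read from RefSeq GRCm38.p6 gene spans on the same strand. The rule first written matched positions on mm9 and shared sequence, and it was replaced once the interval names were found to be on GRCm38. Sequences are those of the probes in the array files. Named probes were the 10 largest called rises and falls without overlap, detected on every array of the group with more signal, the 8 brightest, the 3 longest, the 5 hosts with most probes, the 6 smallest adjusted p of the ratio, and probes of well known circular RNA hosts. Other loci were chosen after their values were seen. The members and the lists (hosts, factors acting on circular RNA, markers of hepatocytes, sinusoidal endothelium, Kupffer cells, stellate cells, cholangiocytes, red blood cells, T and B cells and neutrophils) were chosen with earlier results of these data known. Alternatives were other scalings, normexp with an offset of 50, other filters, the run name, a replicate block and leaving out each array. The counts by class, locus and detection on all 8 arrays, and the RefSeq hosts, were added after seeing the data. Replicate numbers were not used to pair arrays. Some single genes are not reported here.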

Additional observations from a re-analysis of the deposited data

Results flagged for a closer look

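Each group of 4 arrays of a named interval was searched for 1 array far from the other 3 (a gap above Dixon's critical value for 4 values), which chance gives in about 1 of 20 groups. Of 112 groups 5 met it. In 4 of them the array was oxaliplatin array 2, the array with the fewest long-interval probes above background. It was the lowest of its group for the 2 Mlh3 probes, at 4.17 and 4.15, which share most of their sequence and so count as 1 signal. It was also the lowest of its group for Ctnnd2 (-6.77), but the highest for Ubn2 (-3.54). The fifth was the Fer interval chr17:63991594-64029346, where control array 4 stood apart at -5.11. Without oxaliplatin array 2 the calls of both Mlh3 probes and of Ubn2 held, and neither the Ctnnd2 nor this Fer interval was called with or without the array that stood apart.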

How the results depend on the processing

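The counts of long-interval calls, like those over all probes tested, depended on the scaling, the background correction and the arrays used. The cause was not tested. The 596 higher became 1258 under normexp, 2508 with no filter on dim probes (over 19729 probes, or 437 of the same 7445), 203 with the run name in the model and 162 within 1 run name, and 289 to 565 when 1 array was left out. The 475 lower became 881 with the percentile over all probes, 858 after quantile normalization, 149 under normexp, 249 with only the 3688 probes above background on all 8 arrays, 111 both with the run name and within 1 run name, and 187 to 424 without 1 array. The ratio to the host, higher in 489 and lower in 604, was higher in 24 and lower in 10 with hosts by position and shared sequence, where fewer pairs could be formed. It was higher in 1215 under normexp and lower in 1028 after quantile normalization. With the run name it was higher in 103 and lower in 105, within 1 run name in 164 and 178, and without 1 array in 209 to 511 and 257 to 496. Of the factor genes 1 was higher with the percentile over all probes, median centring, quantile normalization or no filter, and 5 were lower with the percentile over all probes. With the run name in the model 0 were higher and 0 lower in limma (2 and 5 at an unadjusted p under 0.05), as within 1 run name (2 and 4), and without 1 array 0 to 1 and 0 to 2 were called. The Ptk2 interval chr15:73274487-73292087 reversed to 0.027 under normexp. Of 51 named calls 15 held in every setting that tested them.

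With the replicate number as a block, 278 long-interval probes were higher and 189 lower, the ratio was higher in 309 and lower in 359, and 0 factor genes were higher and 0 lower in limma (3 and 5 at an unadjusted p under 0.05). Same-numbered arrays of the 2 groups did not deviate together (correlations of -0.2242, 0.0228, -0.0786 and -0.162), and none correlated best with its own number, so the numbers do not pair the arrays.

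Differences near background are limited by the lowest signal well above it, which was -6.38 to -5.88 on control arrays and -4.57 on oxaliplatin array 2.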
